A study of Mus musculus with 8 samples.

Results

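Imprinted growth regulators are genes expressed from only one parental copy that set the growth of the mouse embryo and placenta, and 10 of them were followed here: Igf2, H19, Phlda2, Cdkn1c, Peg3, Peg10, Mest, Grb10, Dlk1 and Meg3. They were chosen by name with earlier results of these data known, as were the gene lists below. Counts set beside shares of all genes therefore describe these genes and are not an independent test. Every probe set of the array annotated with exactly 1 of these symbols was taken. This gave 27 of 45037 probe sets, which read 9 of the 10 genes. H19 had no probe set of its own. A further probe set carried H19 together with Mir675, the microRNA gene inside H19, and is given below as H19/Mir675, outside the counts.

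NG4, a line of mouse embryonic stem cells, received siRNA by reverse transfection, and RNA was taken 48 h later for Affymetrix expression arrays. The groups were siSox2 (against the pluripotency transcription factor Sox2), siPsmd14 (against the deubiquitinase Psmd14 of the proteasome's regulatory particle), siDdb1 (against Ddb1, the adaptor of CUL4 ubiquitin ligases) and the control siNonTarget (a non-targeting siRNA), with 2 arrays each. All 4 groups shared the cell line, the transfection and the amplification of 5 ng of RNA. Nothing in the labels says that the replicates were separate cultures, so p-values here measure only how far the arrays of a group differ, which may be technical variation.

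Imprinting is set by DNA methylation laid down in the germ line at control regions rich in CpG dinucleotides, and these regions act on whole clusters of genes. In the mouse, Igf2 is a fetal growth factor made from the paternal copy, and H19 is a noncoding RNA made from the neighbouring maternal copy under the same control region. Phlda2 and Cdkn1c, further along the same chromosome, are maternally expressed and restrain growth of the placenta and embryo. Many imprinted genes are strongly expressed in the placenta, and some are silent or low in the stem cells of the early embryo.

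Promoter sequence was listed for 7 of the 10 genes in the RefSeq table (build GRCm38.p6), each window running from 250 bases before to 50 after a listed start. The windows of the rising genes Igf2, Phlda2 and Peg3 are shown, with a window of Mest, which did not pass the test, as a contrast. Capitals mark CpG dinucleotides, the sites of DNA methylation. The windows are promoters and need not hold the control regions that carry the imprint. The arrays did not measure methylation.
Igf2 promoter, GRCm38.p6 chr7:142661222-142661521, minus strand: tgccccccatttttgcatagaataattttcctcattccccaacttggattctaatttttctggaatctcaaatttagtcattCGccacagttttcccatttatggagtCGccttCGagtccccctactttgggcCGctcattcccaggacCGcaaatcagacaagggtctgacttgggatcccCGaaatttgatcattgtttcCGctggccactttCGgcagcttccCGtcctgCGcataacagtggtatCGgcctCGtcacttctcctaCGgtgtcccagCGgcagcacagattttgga
Phlda2 promoter, GRCm38.p6 chr7:143502475-143502774, minus strand: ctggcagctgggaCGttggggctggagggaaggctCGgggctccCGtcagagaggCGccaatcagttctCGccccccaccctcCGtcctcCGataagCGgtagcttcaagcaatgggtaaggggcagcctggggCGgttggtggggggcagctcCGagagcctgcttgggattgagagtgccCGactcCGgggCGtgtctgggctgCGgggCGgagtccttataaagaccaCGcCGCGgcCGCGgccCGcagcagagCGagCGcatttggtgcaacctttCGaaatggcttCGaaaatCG
Peg3 promoter, GRCm38.p6 chr7:6730370-6730669, minus strand: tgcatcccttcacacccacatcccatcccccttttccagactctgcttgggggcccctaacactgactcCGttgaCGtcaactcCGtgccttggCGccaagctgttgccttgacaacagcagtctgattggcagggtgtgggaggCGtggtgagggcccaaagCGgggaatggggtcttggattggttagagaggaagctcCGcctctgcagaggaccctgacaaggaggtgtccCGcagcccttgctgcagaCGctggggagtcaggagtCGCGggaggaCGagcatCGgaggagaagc
Mest promoter, GRCm38.p6 chr6:30737800-30738099, plus strand: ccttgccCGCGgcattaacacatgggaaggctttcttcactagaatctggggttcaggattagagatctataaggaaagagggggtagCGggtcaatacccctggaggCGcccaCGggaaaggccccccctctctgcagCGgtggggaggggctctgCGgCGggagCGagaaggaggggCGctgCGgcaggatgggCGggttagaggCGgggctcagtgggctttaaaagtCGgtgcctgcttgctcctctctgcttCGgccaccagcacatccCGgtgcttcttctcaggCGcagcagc
The Phlda2 window held 26 CpG dinucleotides, more than 83.1% of the 32851 windows of this length in the table. The Igf2 window held 14, the Peg3 window 13 and the Mest window 17, against a median of 7 over all windows. The 4 windows listed for Igf2 ranged from 2 to 24 CpG. The Sox core letters CATTGT and CTTTGT were searched on both strands, together with the octamer ATGCAAAT. The only match in the 14 windows of these genes was CATTGT in the Igf2 window shown, starting at position -56 from the listed start. CATTGT or CTTTGT occurred in 28.6% of all windows and ATGCAAAT in 1.74%. A match is a string of letters and not a measured binding site.

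The microRNA inside H19 is processed from its transcript, and its mature forms are shown because the only probe set for H19 carries both names. Capitals mark the seed, bases 2 to 8, which pairs with target RNAs. The array reads the long transcript, not these mature forms.
mmu-miR-675-5p, GRCm38.p6 chr7:142577112-142577133, minus strand: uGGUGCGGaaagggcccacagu
mmu-miR-675-3p, GRCm38.p6 chr7:142577078-142577099, minus strand: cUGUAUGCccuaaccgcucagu

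The array medians lay between 4.78 and 4.85 on the log2 scale of the deposited values, which had been computed with RMA, and 1 linear model over the 8 arrays gave the tests. Ddb1 signal was 22.1% and 46.1% of the control mean on the siDdb1 arrays (log2 fold change -1.65, limma adjusted p = 0.147). Sox2 signal was 83.6% and 69.8% on the siSox2 arrays (adjusted p = 0.301 in limma), and Psmd14 signal 90.5% and 82.7% on the siPsmd14 arrays (adjusted p = 0.522), so no targeted transcript passed an adjusted p of 0.05. The stem cell genes Pou5f1 and Nanog were bright in every group, with Pou5f1 at 12.85 to 13.30 and Nanog at 11.35 to 12.13 over the 8 arrays. Bulk arrays cannot tell fewer cells of a type from less RNA per cell, and they do not separate the parental copies.

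In siSox2, 5 of the 9 genes rose and none fell, against 2.81% of 18193 genes that rose and 1.46% that fell in this comparison. The 5 were Igf2, Cdkn1c, Phlda2, Peg3 and Peg10, and H19/Mir675 rose as well. Mest, Grb10, Dlk1 and Meg3 did not pass the test. By probe set, 8 of 27 rose and none fell (1.88% of all probe sets rose and 1.05% fell). In siPsmd14 none of the 27 probe sets passed, where 1.35% of all probe sets and 1.89% of all genes did. In siDdb1 none passed either, where 0.0266% of all probe sets and 0.044% of all genes did. Counting genes whose arrays did not overlap those of the control, 5 of 9 lay higher in siSox2 and 1 lower (23.3% and 29.3% of all genes). In siPsmd14 3 lay higher and 1 lower (22.4% and 24.1%), and in siDdb1 4 lay higher and 1 lower (19.8% and 22.3%). At an unadjusted limma p of 0.05, 10 of 27 passed in siSox2, 2 in siPsmd14 and 5 in siDdb1, against 15%, 14.5% and 8.04% of all probe sets. These counts pool both directions: Meg3 probe sets at -0.48 and -0.66 were lower in siSox2, and Phlda2 (-0.58) was lower in siDdb1. Leaving out either siNonTarget array lowered the siSox2 count to 2, by replicate 1 as by replicate 2, and leaving out siSox2 replicate 2 lowered it to 4. Over all 8 such omissions Igf2, Cdkn1c and H19/Mir675 stayed past the threshold in limma, Phlda2 in 6, Peg3 in 5 and Peg10 in 3.

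**Figure D1:**
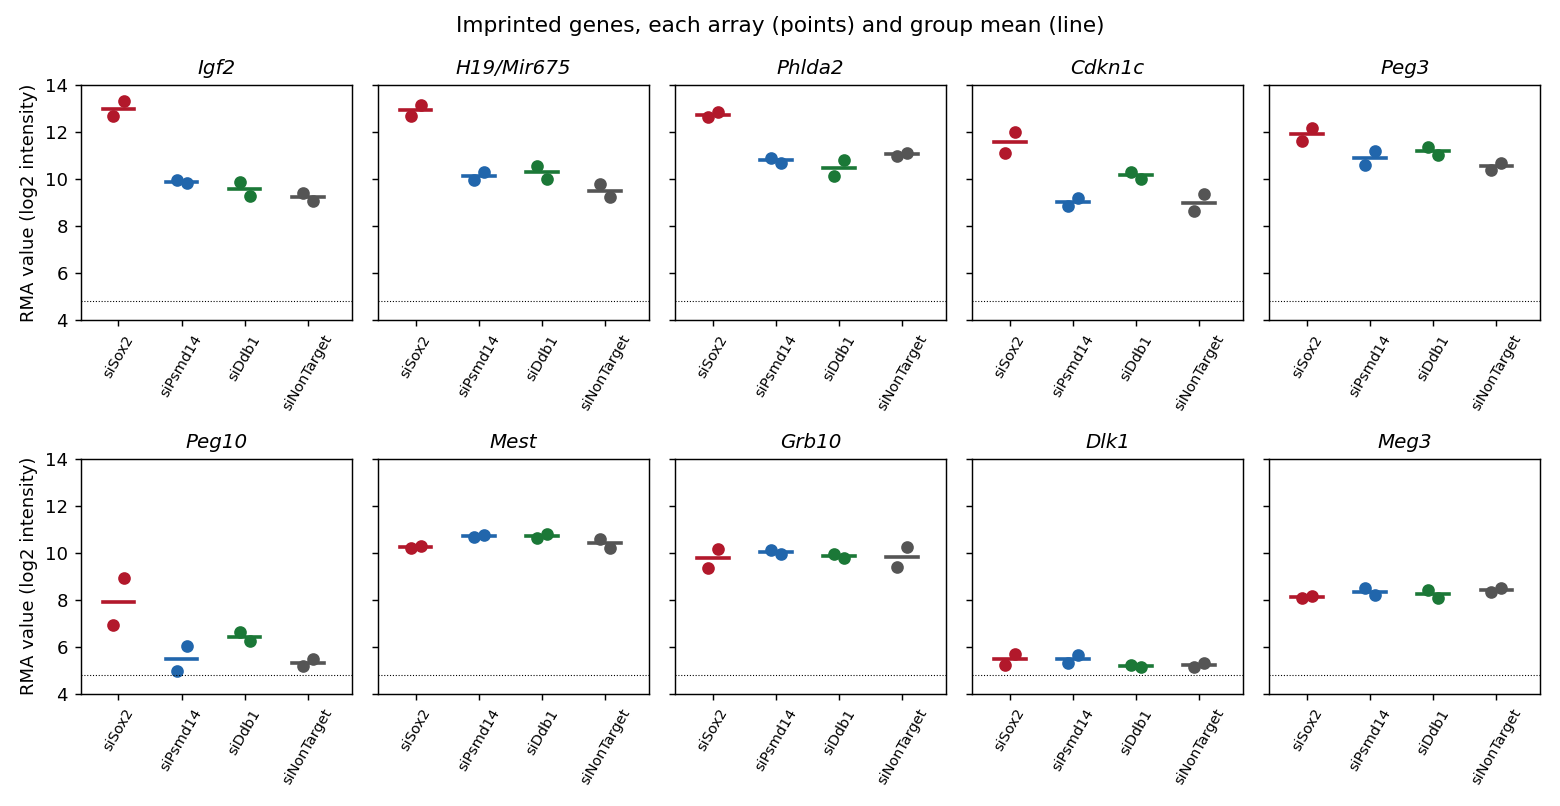
Each panel plots the RMA value (log2 intensity) of a gene's representative probe set on every array (points, 2 per group) with the group mean (line); the dotted line is the median of all probe sets, 4.81. The siSox2 arrays lie above all others for Igf2, H19/Mir675, Phlda2, Cdkn1c, Peg3 and Peg10, and overlap the control for Grb10, Dlk1 and Mest.

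The ligand Igf2, which signals growth through the type 1 IGF receptor, showed the largest rise of the 9 genes in siSox2. Its brighter probe set read 12.67 and 13.32 in siSox2, 9.94 and 9.82 in siPsmd14, 9.88 and 9.26 in siDdb1, and 9.39 and 9.04 in siNonTarget. Both siSox2 arrays stood clear of the other 6, while the siDdb1 and siNonTarget arrays overlapped. The change in siSox2 was 13.7-fold (log2 fold change 3.78, SE 0.26, limma adjusted p = 0.000332). It was 0.66 in siPsmd14, with both arrays above the control arrays (limma adjusted p = 0.278), and 0.35 in siDdb1 (adjusted p = 0.807). The second Igf2 probe set was dim, at 4.55 and 6.04 in siSox2 and at 3.44 and 3.23 in siNonTarget, and it also rose (log2 fold change 1.96, SE 0.38, limma adjusted p = 0.0293).

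H19, the noncoding RNA next to Igf2, moved with it in siSox2. H19/Mir675 read 12.69 and 13.16 in siSox2, 9.95 and 10.28 in siPsmd14, 10.54 and 10.01 in siDdb1, and 9.78 and 9.22 in siNonTarget. Every knockdown array lay above both control arrays, and the siSox2 arrays lay furthest above. The rise in siSox2 was 10.7-fold (log2 fold change 3.42, SE 0.25, limma adjusted p = 0.000395). The values of 0.62 in siPsmd14 and 0.78 in siDdb1 did not pass (limma adjusted p = 0.303 and 0.451). RNA of the paternally expressed Igf2 and of the maternally expressed H19 thus rose in the same samples.

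Phlda2, a pleckstrin-homology protein that limits growth of the placenta, rose in siSox2. It read 12.65 and 12.83 in siSox2, 10.90 and 10.69 in siPsmd14, 10.14 and 10.79 in siDdb1, and 10.97 and 11.12 in siNonTarget. The siSox2 arrays lay above all others, and all 4 arrays of siPsmd14 and siDdb1 lay below both control arrays. The rise in siSox2 was 3.23-fold (log2 fold change 1.69, SE 0.21, limma adjusted p = 0.00413), and its adjusted p became 0.0516 when siNonTarget replicate 1 was left out and 0.0589 when replicate 2 was. In siPsmd14 the value was -0.25 and in siDdb1 -0.58, neither past the threshold (limma adjusted p = 0.657 and 0.497).

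Cdkn1c, the cyclin-dependent kinase inhibitor p57Kip2, rose in siSox2 and had its next highest level in siDdb1. It read 11.10 and 12.02 in siSox2, 8.84 and 9.21 in siPsmd14, 10.30 and 9.999 in siDdb1, and 8.62 and 9.37 in siNonTarget. The siDdb1 arrays lay between those of siSox2 and those of the remaining groups without overlap, and siPsmd14 overlapped the control. The change was 5.92-fold in siSox2 (log2 fold change 2.57, SE 0.32, limma adjusted p = 0.00473). In siDdb1 it was 2.23-fold with an interval of 0.43 to 1.88 on the log2 scale (95%), and it did not pass over all probe sets (limma adjusted p = 0.349). In siPsmd14 it was 0.03, with an interval of -0.69 to 0.76.

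Peg3, a paternally expressed zinc finger protein, rose in siSox2 by each of its 3 bright probe sets. The brightest read 11.63 and 12.17 in siSox2, 10.60 and 11.17 in siPsmd14, 11.38 and 11.02 in siDdb1, and 10.37 and 10.69 in siNonTarget. The siSox2 and siDdb1 arrays lay above both control arrays, and the siPsmd14 arrays overlapped the control. The 3 log2 fold changes in siSox2 were 1.37 (SE 0.24), 1.45 (SE 0.25) and 1.42 (SE 0.20), with limma adjusted p between 0.0086 and 0.0211. In siDdb1 the same probe sets gave 0.67, 0.47 and 0.68, and in siPsmd14 0.35, 0.20 and 0.24, none past the threshold. The other 2 Peg3 probe sets read 2.56 to 2.92 on all arrays, with 0.664% and 1.34% of all probe sets dimmer, and gave -0.01 and 0.13 in siSox2. For the brightest probe set the limma adjusted p became 0.16 when siNonTarget replicate 1 was left out, 0.118 for its replicate 2 and 0.183 for replicate 2 of siSox2.

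Peg10, a gene of retrotransposon origin that the mouse placenta needs, rose in siSox2 with the widest gap between replicates. It read 6.92 and 8.93 in siSox2, 4.95 and 6.04 in siPsmd14, 6.62 and 6.25 in siDdb1, and 5.17 and 5.48 in siNonTarget. The siSox2 arrays lay above all the others, and the siDdb1 arrays lay above the control arrays. The rise in siSox2 was 6.04-fold (log2 fold change 2.59, SE 0.56, limma adjusted p = 0.046). It was 1.59 without siSox2 replicate 2 and 3.60 without siSox2 replicate 1, and leaving out either siDdb1 array, which left the fold change as it was, gave a limma adjusted p of 0.0677. In siDdb1 the log2 fold change was 1.11, with an interval of -0.16 to 2.37 (limma adjusted p = 0.681).

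The 4 remaining genes passed in no comparison. Mest, a paternally expressed hydrolase-fold protein, read 10.20 and 10.29 in siSox2, 10.66 and 10.73 in siPsmd14, 10.62 and 10.80 in siDdb1, and 10.60 and 10.19 in siNonTarget. Its siPsmd14 and siDdb1 arrays lay just above the control arrays, and its log2 fold changes were -0.15 (interval -0.51 to 0.20) in siSox2, 0.30 in siPsmd14 and 0.31 in siDdb1. Grb10, an adaptor that dampens insulin and IGF receptor signalling, read 9.36 and 10.18 in siSox2 and 9.38 and 10.23 in siNonTarget. Its replicates thus differed within those groups by more than the groups did, and its change of -0.04 in siSox2 had an interval of -0.73 to 0.65. The other 2 Grb10 probe sets were dim and gave -0.17 and 0.13.

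Dlk1, a transmembrane Notch-like protein made from the paternal copy of its chromosome 12 cluster, was barely above the array median. It read 5.24 and 5.70 in siSox2, 5.32 and 5.65 in siPsmd14, 5.24 and 5.15 in siDdb1, and 5.15 and 5.29 in siNonTarget. Its change in siSox2 was 0.25 (interval -0.16 to 0.66). Meg3, the maternally expressed noncoding RNA of that cluster, was read by 11 probe sets. The brightest read 8.08 and 8.16 in siSox2, 8.49 and 8.19 in siPsmd14, 8.43 and 8.06 in siDdb1, and 8.35 and 8.51 in siNonTarget. Both siSox2 arrays lay below both control arrays, by 0.31 on average, with an interval of -0.68 to 0.07 (limma adjusted p = 0.445). The 11 Meg3 probe sets ranged from -0.66 to 0.26 in siSox2, and none passed. Those with a mean over the 8 arrays above the median of all probe sets were all negative. The positive ones lay below that median.

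**Figure D2:**
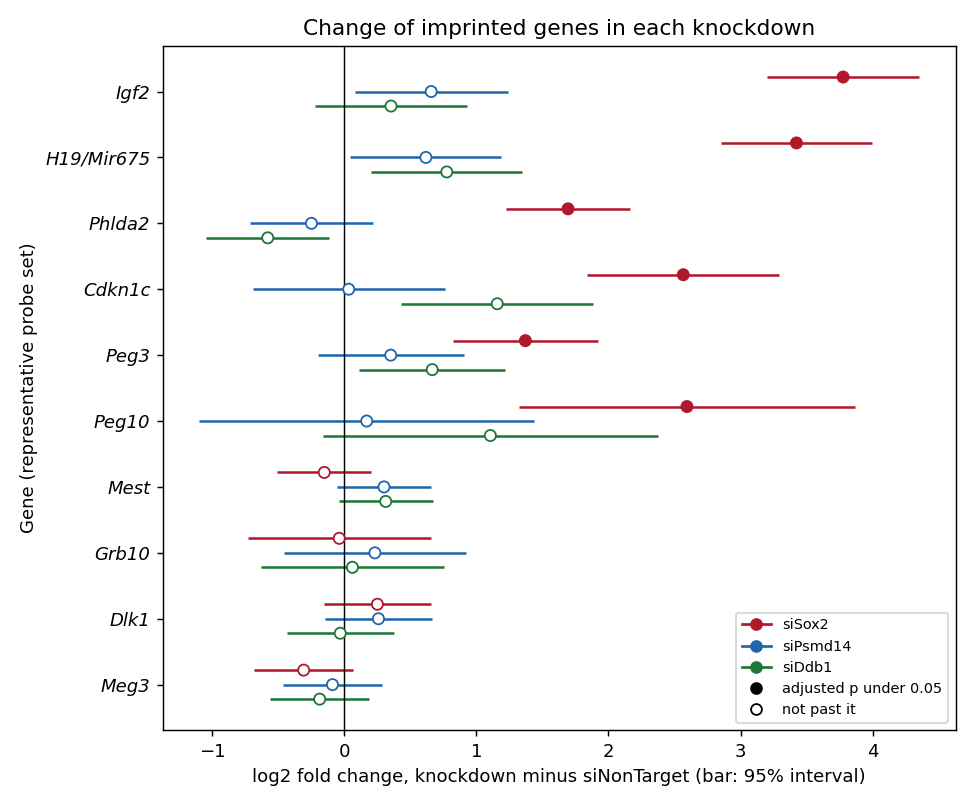
Log2 fold change of each gene's representative probe set against siNonTarget (horizontal axis) for siSox2, siPsmd14 and siDdb1, with 95% intervals as bars; filled points passed an adjusted p of 0.05. Filled points occur only for siSox2, from 1.37 for Peg3 to 3.78 for Igf2, and the intervals of Mest, Grb10, Dlk1 and Meg3 in siSox2 include 0.

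**Figure D3:**
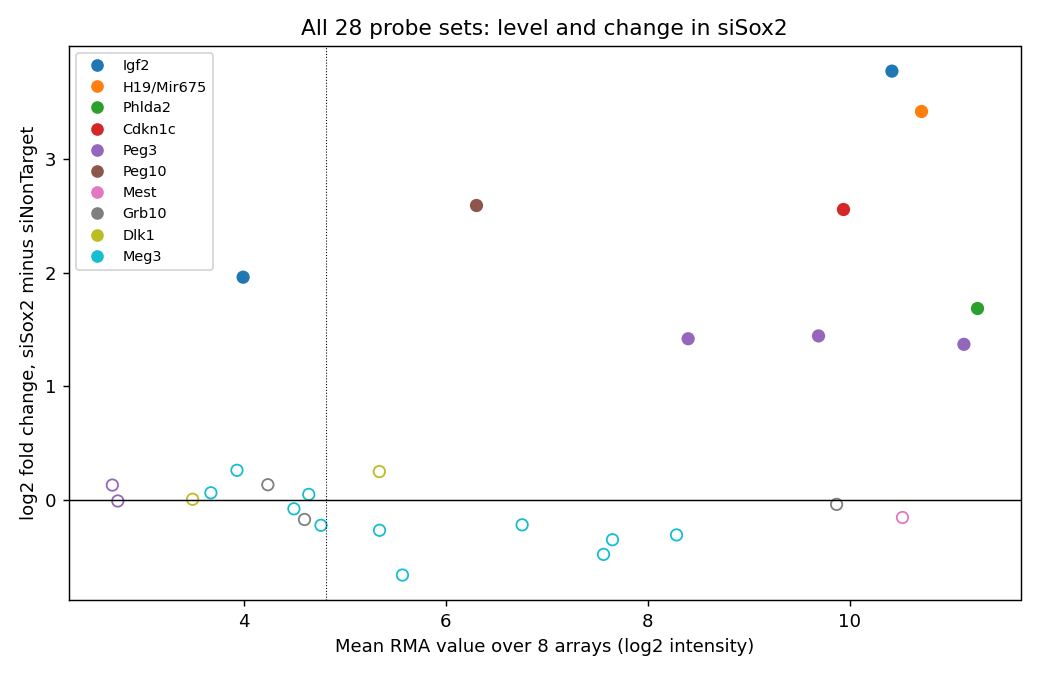
Mean RMA value over the 8 arrays (log2 intensity) against the log2 fold change in siSox2 for the 27 probe sets and H19/Mir675; filled points passed an adjusted p of 0.05, and the dotted line is the median of all probe sets. Of the 27, 11 lie below the median and 1 of those passed, while 7 of the 16 above it passed.

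Set against siSox2 directly, the knockdowns of the ubiquitin-proteasome genes had lower levels of several of these RNAs. In siPsmd14, 3 of 9 genes were lower than in siSox2, against 2.05% of all genes: Igf2 (-3.12, SE 0.26, limma adjusted p = 0.000862), Phlda2 (-1.94, adjusted p = 0.00267) and Cdkn1c (-2.53, adjusted p = 0.00523). H19/Mir675 was lower by 2.81 on the log2 scale (log2 fold change -2.81), and 2 further Peg3 probe sets passed at -1.25 and -1.18. Peg10 (-2.42) and the representative probe set of Peg3 (-1.02) did not pass (limma adjusted p = 0.0592 and 0.0664). By probe set the count was 5 (1.44% of all were lower), and it was 3 without siSox2 replicate 2 and 3 without siPsmd14 replicate 1. In siDdb1, 2 of 9 genes were lower than in siSox2, against 2.6% of all genes, namely Igf2 (-3.42, limma adjusted p = 6e-04) and Phlda2 (-2.27, adjusted p = 0.00131), and H19/Mir675 was lower at -2.65. Cdkn1c was at -1.41 with a limma adjusted p of 0.0537, and without siSox2 replicate 1 the count by probe set was 5 in place of 2 (1.71% of all were lower). Between siPsmd14 and siDdb1 no member passed, where 0.413% of probe sets did, and the widest difference was that of Cdkn1c (-1.12, interval -1.85 to -0.40, limma adjusted p = 0.218). At an unadjusted limma p of 0.05, 1 of 27 passed there, against 10.8% of all probe sets. These comparisons share arrays with the ones above.

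Igf2, H19, Cdkn1c and Phlda2 share the distal imprinted region of chromosome 7, and most other measured genes of that region did not pass the test. From H19 to Osbpl5 the array measured 23 genes in annotation order. Of the 19 that are not members, 2 rose in siSox2 and none fell, against 2.81% of all genes that rose and 1.46% that fell. The median log2 fold change of the 19 was 0.08, against -0.03 over all genes. The 2 that rose were Ascl2, a maternally expressed transcription factor that the trophoblast needs (3.50, SE 0.26, limma adjusted p = 0.000402), and Igf2os, the antisense RNA of Igf2 (2.43, SE 0.26, adjusted p = 0.00221). Igf2os overlaps Igf2, and whether its probe set reads that strand alone is not known. Kcnq1ot1, the paternal noncoding RNA that silences its neighbours in this region, gave 0.03 in siSox2, -0.03 in siPsmd14 and -0.26 in siDdb1. Slc22a18, between Cdkn1c and Phlda2, gave 0.05 in siSox2, and Nap1l4, next after Phlda2, gave -0.04. In siPsmd14 and siDdb1 none of the 19 passed, where 1.89% and 0.044% of all genes did. By their mean over the 8 arrays, Trpm5, Kcnq1, 4933417O13Rik, Tnfrsf23, E230032D23Rik and Osbpl5 lay below the median of all probe sets, at 3.35 to 4.27. A change in such dim genes is hard to see. The stretch was laid out after the values of its members had been seen.

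**Figure D4:**
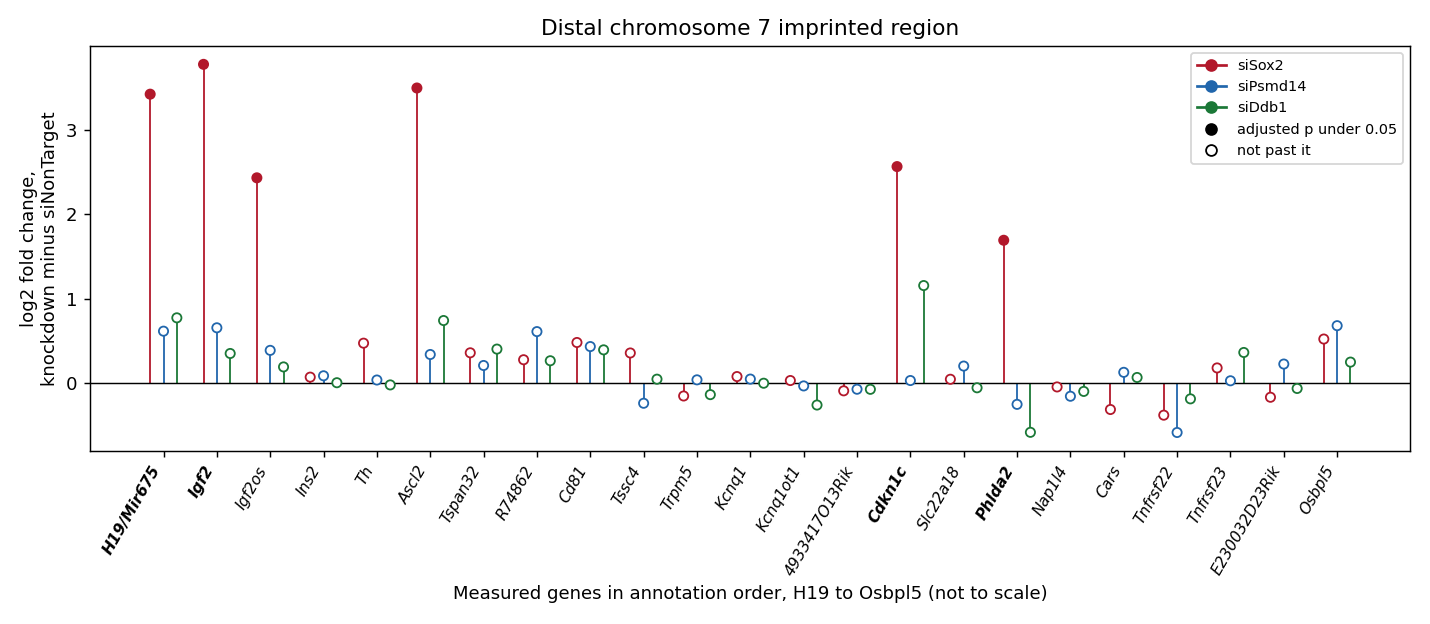
Log2 fold change against siNonTarget (vertical axis) of the 23 measured genes from H19 to Osbpl5 on chromosome 7, in annotation order and not to scale, for siSox2, siPsmd14 and siDdb1; filled points passed an adjusted p of 0.05 and the followed genes are in bold. Filled points occur only for siSox2, at H19/Mir675, Igf2, Igf2os, Ascl2, Cdkn1c and Phlda2.

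Other imprinted genes were followed as lists by parental copy. Of 21 measured paternally expressed genes, 3 rose and 2 fell in siSox2, with a median of 0.05, against -0.03 over all genes. Of all genes, 2.81% rose and 1.46% fell in this comparison. Sfmbt2, a polycomb-group protein needed in trophoblast (1.30, limma adjusted p = 0.0113), and Sgce, the sarcoglycan gene that neighbours Peg10 (1.72, adjusted p = 0.0121), rose. The splicing protein gene Snrpn (-0.71, limma adjusted p = 0.0185) and the decarboxylase gene Ddc (-0.83, adjusted p = 0.0238) fell. The amino acid transporter Slc38a4 (0.60, limma adjusted p = 0.0401) also rose and was named after its value was seen. Of 28 measured maternally expressed genes, Ascl2 alone rose and none fell, against the same 2.81% and 1.46% of all genes, with a median of 0.07. In siPsmd14, 1.89% of all genes passed. Impact, an inhibitor of the stress kinase Gcn2, was the only one of the 21 that passed there (0.86, limma adjusted p = 0.0288). None of the 28 did, and among them Gatm (0.84) and Blcap (0.48) had the smallest p. In siDdb1 none of either list passed by limma, where 0.044% of all genes did. The transcription factor Plagl1 (1.03, limma adjusted p = 0.244), Magel2 (1.29), Cobl (-0.95) and Zim1 (-0.57) had the smallest p.

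A few genes of the IGF pathway around Igf2 passed the test, 3 of 20 measured in siSox2, 3 in siPsmd14 and 1 in siDdb1, and the receptors did not pass in any. In siSox2, 2 rose and 1 fell, against 2.81% of all genes that rose and 1.46% that fell: the binding protein Igfbp3 (1.79, limma adjusted p = 0.00282), the receptor substrate Irs2 (1.18, adjusted p = 0.0185) and the substrate Irs4, which fell (-0.73, adjusted p = 0.0498). In siPsmd14, where 1.89% of all genes passed, 3 rose, namely Igfbp3 (1.43, limma adjusted p = 0.0146), Irs2 (1.12) and Igfbp6 (1.84). In siDdb1, where 0.044% of all genes passed, Irs4 rose (1.50, limma adjusted p = 0.0448), from a dim probe set that read 5.93 and 5.72 in siDdb1 and 4.50 and 4.15 in siNonTarget. That call was lost with only the 4 arrays in the fit and at a threshold of 0.01, where no probe set of the array passed in siDdb1, and it was not among the brighter 50% of probe sets when those were tested alone. The call was lost as well whenever any single array other than siDdb1 replicate 2 was left out. The receptors Igf1r, Insr and Igf2r gave 0.41, 0.03 and 0.41 in siSox2, and the mRNA-binding Igf2bp1 gave 0.06. The median of the list was 0.01 in siSox2, 0.00 in siPsmd14 and 0.13 in siDdb1. Igfbp3 thus rose both where Igf2 rose and where it did not pass.

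Of all genes, 2.81% rose and 1.46% fell in siSox2, 1.89% passed in siPsmd14 and 0.044% in siDdb1. Factors that maintain imprints and DNA methylation were measured as 18 genes, and none passed in any of the 3 knockdowns. At such small shares over all genes, the absence of calls says little about these 18. The median log2 fold change of the 18 was -0.21 in siSox2, -0.35 in siPsmd14 and -0.08 in siDdb1, against -0.03, -0.02 and -0.02 over all genes. Tet2, which oxidises methylcytosine, had the smallest p in each, at -0.70, -0.80 and -0.65 (limma adjusted p = 0.155, 0.129 and 0.469). Zfp57, the zinc finger protein that keeps germ-line imprints, gave -0.48, -0.44 and -0.53, Eed gave -0.37 in siSox2, and Setdb1 gave -0.39 in siPsmd14.

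Some markers of other cell types rose with the rising members in siSox2. Of 15 measured trophoblast markers, 8 rose past an adjusted p of 0.05 in limma, against 2.81% of all genes. The smallest p were those of Plac1 (log2 fold change 6.23), Krt7 (4.47), Nrk (3.89) and Cdx2 (1.65). The other 7 did not pass, among them Esx1 (0.73), Eomes (0.36), Hand1 (0.22), Elf5 (0.18) and Tpbpa (0.035), which were named after their values were seen. Over all 15 markers, the log2 of the summed intensities was 14.07 and 14.91 in siSox2, and 13.60 and 13.39 in siPsmd14. In siDdb1 it was 12.13 and 12.10, and in siNonTarget 11.85 and 11.61. An intensity sum is weighted to its brightest genes, which were Krt8 and Krt18 on the siSox2 and siPsmd14 arrays. In siPsmd14 Krt8 read 12.51 and 12.4, and Krt18 12.14 and 11.64. Plac1 read 5.37 and 5.36 there, against 10.36 and 10.76 in siSox2. Past the threshold in limma, 6 of the 15 were lower in siPsmd14 than in siSox2 and 0 higher, where 2.05% of all genes were lower. In siDdb1, 9 of the 15 were lower than in siSox2 and 1 higher, where 2.6% of all genes were lower. The keratins Krt8 (2.63), Krt18 (2.37) and Krt7 (1.94) rose in siPsmd14, where 1.89% of all genes passed and no member did. Replicate 2 of siSox2, which had the higher trophoblast sum, also read above replicate 1 for all 6 rising members, H19/Mir675 included. The same held for the representative probe sets of the genes that did not pass, Grb10 (by 0.823), Dlk1 (0.465), Mest (0.097) and Meg3 (0.074). This order of the replicates was thus not particular to the rising members. Nor was it particular to the trophoblast sum. Replicate 2 also had higher sums of fibroblast (12.94 against 12.17) and primitive endoderm markers (9.68 against 9.22). Its sums of stem cell (15.83 against 15.92) and mesoderm markers (9.55 against 10.05) were lower. The share of all genes with this order was not counted. The part of the trophoblast markers in the result was not tested.

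Of all genes, 2.81% rose and 1.46% fell in siSox2, 1.89% passed in siPsmd14 and 0.044% in siDdb1. Of 14 measured fibroblast markers, which feeder cells would carry, Tagln (1.87) and Pdgfrb (1.42) rose and Thy1 fell (-1.06) in siSox2. Their summed level was 12.17 and 12.94 in siSox2 and 11.48 and 11.77 in siNonTarget. By their mean over the 8 arrays, 8 of the 14 lay below the median of all probe sets. Among the 4 collagens, Col1a1 (3.81 and 4.20 in siSox2, 3.77 and 3.52 in siNonTarget) and Col3a1 (3.29 and 3.49 in siSox2, 3.35 and 3.20 in siNonTarget) lay below it on every array. Col1a2 lay above it on every array, at 5.28 and 5.86 in siSox2 and 5.50 and 5.11 in siNonTarget. Col6a1 read 5.57 and 4.26 in siSox2 and 4.005 and 3.859 in siNonTarget, and none of the 4 passed the test. These 4 were set side by side after their values were seen. In siPsmd14, Tagln (1.66) and S100a4 (1.18) rose. Of 11 primitive endoderm markers, Dab2 (2.67), Foxa2 (1.60) and Gata6 (1.87) rose in siSox2, and their summed level was 9.22 and 9.68 in siSox2 and 8.24 and 8.25 in siNonTarget. Of 11 mesoderm markers none passed in any knockdown, with Kdr at -0.34 and Evx1 at -0.27 in siSox2. Of 13 stem cell markers, Esrrb alone passed in siSox2 (-0.58, limma adjusted p = 0.0399), and the summed level was 15.92 and 15.83 in siSox2 and 16.07 and 16.19 in siNonTarget. The part of these cell types in the members' changes was not tested.

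The genes whose pattern over the 8 arrays lay nearest to each rising member were searched among 18192 others (18193 for H19/Mir675), by the root mean square difference of centred log2 values. Nearest to Igf2 were the homeobox gene Irx3 (0.23), the kinase gene Nrk (0.25) and Ascl2 (0.33). Nearest to H19/Mir675 were Nrk (0.24), Ascl2 (0.27) and Igf2 (0.31). Cdkn1c lay nearest to Lzts1, Car4 and Mex3b, at 0.21, 0.21 and 0.26, and Peg10 to Lzts1 (0.26), Cdkn1c (0.35) and Mex3b (0.37). Peg3 lay nearest to the topoisomerase gene Top2b, Greb1l and Zfp467, at 0.17 to 0.19. Phlda2 lay nearest to the troponin gene Tnnt1, Zbtb10 and the connexin gene Gjb5, each at 0.27.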

How the data were processed

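Expression was measured on 8 Affymetrix arrays of NG4 mouse embryonic stem cells. Per the submitters' processing notes, the authors used RMA to make the deposited intensity values. The sources used here give no version of it and no settings. In its usual form RMA gives the arrays equal distributions, and a change is then read against most other probe sets. The deposited values were linear, and their log2 was fitted. Of 45101 probe sets, 64 controls were left out. GEO's platform annotation gave 34945 of the rest 1 symbol, 932 several and 9160 none. All 27 member probe sets matched the RefSeq gene table by Entrez identifier, with 0 renamed. Where a gene had several probe sets, the brightest on average over the 8 arrays stood for it.

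The 8 arrays entered 1 linear model (limma 3.58.1, R 4.3.3, lmFit and eBayes without trend, 9.02 total degrees of freedom), and p-values were adjusted by Benjamini-Hochberg over 45037 probe sets at a threshold of 0.05. Every adjusted p comes from limma. The replicate number was not a block. The fitting code was tested on simulated data. The number of arrays limits the precision, and no scanner files or detection calls were used here. The members and gene lists were chosen with earlier results of these data known. All members were named, and from each list up to 4 genes past the threshold with the smallest p, or 2 where none passed. Alternatives were a filter on dim probe sets, array medians subtracted, quantile normalization, trend and robust eBayes, array weights, the 4 arrays alone, the replicate block, a threshold of 0.01, 1 probe set per gene and leaving out each array.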

Additional observations from a re-analysis of the deposited data

How the results depend on the processing

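The rises of Igf2, Cdkn1c, Phlda2 and H19/Mir675 in siSox2 kept their direction and call under every alternative run that keeps all 8 arrays or the 4 compared (H19/Mir675 was not in the fit with 1 probe set per gene), and Peg3 lost its call at a threshold of 0.01 and Peg10 both there and with only the 4 arrays in the fit (adjusted p = 0.0662). The siSox2 count of 8 member probe sets was 4 at a threshold of 0.01 and 5 with 1 probe set per gene, where 9 could be called, and 2 to 8 over the arrays left out. Against siSox2, the siPsmd14 count of 5 was 8 with array medians subtracted, 8 with trend and robust eBayes, 3 with only the 4 arrays and 3 at 0.01, and 3 to 7 over the arrays left out. The siDdb1 count against siSox2 of 2 was 4 with array medians subtracted and 4 with trend and robust eBayes, 3 with array weights, and 2 to 5 over the arrays left out. The causes were not tested. For siPsmd14 and siDdb1 against siNonTarget, and between them, the member count was 0 under every alternative run.

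With the replicate number as a block the member count was 8 for siSox2, 0 for siPsmd14 and 0 for siDdb1 against siNonTarget, 6 for siPsmd14 and 3 for siDdb1 against siSox2, and 0 between siPsmd14 and siDdb1. The labels do not say that the numbers pair arrays, and same-numbered deviations correlated at 0.24, 0.06 and -0.21 with those of siNonTarget for siSox2, siPsmd14 and siDdb1. With the siDdb1 numbers crossed, an alternative added after seeing the data, 0 member probe sets and 53 probe sets in all passed in siDdb1.

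Over all probe sets, the count in siSox2 was 1320, 375 at a threshold of 0.01 and 153 to 1440 over the arrays left out. In siPsmd14 it was 609, 86 and 17 to 1295, and in siDdb1 12, 0 and 0 to 146. In siDdb1 it was also 0 with the 4 arrays alone, 0 without the dimmer 50% of probe sets and 2 with the replicate block. Against siSox2 it was 1255 for siPsmd14 (331 at 0.01, 455 with the 4 arrays alone, 325 to 1543 over the arrays left out) and 1387 for siDdb1 (383, 789, and 319 to 1486). Between siPsmd14 and siDdb1 it was 186 (22 and 11, 122 with array weights, 260 with trend and robust eBayes, and 11 to 884 over the arrays left out, with 884 without siPsmd14 replicate 2).

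Values near 0 that changed sign were not past the threshold either way. Dlk1 in siPsmd14 against siSox2 was 0.008 and became -0.007 with array medians subtracted, and -0.22 to 0.24 over the arrays left out. Over the arrays left out, Mest in siSox2 ranged from -0.36 to 0.054 and Grb10 from -0.46 to 0.39. In siPsmd14, Cdkn1c ranged from -0.34 to 0.41, Peg10 from -0.37 to 0.71, Grb10 from -0.19 to 0.66 and Meg3 from -0.24 to 0.064. In siDdb1, Grb10 ranged from -0.36 to 0.49 and Dlk1 from -0.10 to 0.039. Against siSox2, Grb10 ranged from -0.14 to 0.68 in siPsmd14 and from -0.31 to 0.51 in siDdb1, where Meg3 ranged from -0.064 to 0.31. Between siPsmd14 and siDdb1, Igf2 ranged from -0.006 to 0.61, Mest from -0.10 to 0.076, Meg3 from -0.088 to 0.28 and H19/Mir675 from -0.42 to 0.10.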

Other observations

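The genes next to the members along their chromosomes were read as well, taking the 5 measured genes on each side in annotation order, a rule set after the members' values had been seen. Of 71 such neighbours that are not members, 5 rose and 1 fell in siSox2, against 2.81% of all genes that rose and 1.46% that fell. Beside Ascl2, Igf2os and Sgce, the rising ones were the leukocyte protein gene Lsp1 (0.91, limma adjusted p = 0.0174) and the troponin gene Tnnt3 (1.36, adjusted p = 0.0079), both on the far side of H19 from Igf2. Ddc, near Grb10, was the one that fell. The median of the 71 was -0.02, against -0.03 over all genes. In siPsmd14, Zfp78 near Peg3 rose (1.29, limma adjusted p = 0.0269) and no other neighbour passed, where 1.89% of all genes did. In siDdb1 none of the 71 passed, where 0.044% of all genes did.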
